A study of Mus musculus with 2 samples.

Results

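The sites described here are the strong Ehf peaks of usual width in mouse corneal epithelium, 799 of the 15384 peaks in the authors' list. They lie on chromosomes 1 to 19, are 200 to 1200 bp wide and carry a score of 150 or more, where the score is a value the authors deposited with every peak. Each starts above 3.1 Mb, and its nearest other peak lies more than 1000 bp and at most 300 kb away, measured edge to edge. The 9154 peaks that meet the same limits on width, place and distance but score below 150 are called the weaker peaks, and both groups together make up 9953 peaks of usual width. Score, width and distance chose the members, so these values are given as a description and no test was made of them.

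Ehf, also called ESE-3, is a transcription factor of the ETS family that is found mainly in epithelia. ETS proteins bind DNA at short sites built around a GGAA core, and the epithelial members of the family act in the differentiation of stratified epithelia such as that of the cornea. In ChIP-seq, chromatin fragments held by an antibody are sequenced, and stretches where their reads pile up over the background are called as peaks. A peak marks DNA that was pulled down and shows neither which base was bound nor which gene responds.

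The chromatin came from the corneal epithelium of wild-type mice aged 2 to 3 months, with tissue of 15 mice pooled before fixation. One label calls the mice CB6 and another C57Bl/6. An antibody named ESE-3A (E-15) was used on 24 ug of sonicated chromatin, and an input library of chromatin that was not precipitated was sequenced with it in single-end reads of 50 bp. There was 1 library of each kind, so nothing below has a biological replicate, the number of reads behind a peak is unknown, and every interval covers the counting error of 1 list. All positions are mm9. No annotation or sequence of that build was used, so the sites are named by coordinate, and neither genes nor motifs are given for them.

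Strong peaks were a small part of the peaks of usual width. They made up 8.03% of them (95% Wilson interval 7.51 to 8.58%) and covered 446 kb, against 3800 kb for the weaker peaks. In the whole list 2324 peaks scored 150 or more, and most of these were not of usual width, since 1314 of them (56.5%, Wilson interval 54.5 to 58.5%) were under 200 bp wide. The limits on width removed 1319 of the 2271 such peaks on chromosomes 1 to 19, the limit on the start 10, the lower limit on distance 111 and the upper limit 32. The share of peaks scoring 150 or more was close to 8% on all sides of the distance limits. It was 8.11% (6.78 to 9.68%) among peaks of the same width with a neighbour at 1000 bp or less, and 7.73% (5.53 to 10.7%) among those with none within 300 kb. Peaks outside the width limits stood apart. Of those under 200 bp, 38.9% (37.3 to 40.6%) were at or above the score, and of the 45 over 1200 bp, 42 were (93.3%, 82.1 to 97.7%).

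Most strong peaks lay just above the threshold. The median score was 180 (quartiles 163 and 211), and scores ran from 150.02 to 2084. Of the 799, 534 (66.8%) scored under 200, 42 (5.26%) scored 300 or more, 16 scored 400 or more and 5 scored 1000 or more. The median of the weaker peaks was 75.3 (quartiles 62.2 and 95.4). No gap in the scores separates the groups. The lowest strong peak was chr12:11444679-11445091 at 150.02, and the next were chr1:17087539-17088227 at 150.18, chr7:134782587-134782825 at 150.19, chr15:76427571-76427865 at 150.24 and chr10:7400677-7401559 at 150.27. The highest weaker peak was chr10:122156324-122156551 at 149.93, followed by chr8:108583521-108584288 at 149.92, chr8:126929069-126929324 at 149.85, chr15:100908447-100909307 at 149.83 and chr19:16207178-16208004 at 149.79. These 10 sites, 227 to 882 bp wide, differ in score by less than 1 unit and are strong or weaker by the threshold alone.

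Many scores were shared by several peaks. Of the strong peaks, 218 (27.3%) had the same score as another strong peak, to the 2 decimals of the list. The order among peaks of equal score is not known. Among the weaker peaks, 6923 (75.6%) shared their score with another weaker peak. Ties were counted within each group, and the weaker peaks are more numerous and lie in a narrower range of scores. Both raise the share of ties by construction, so the percentages of the groups are a description and no difference is read from them. The value 174.97 was held by 13 strong peaks on 12 chromosomes, with widths of 282 to 540 bp, and by 1 further peak of the whole list. The value 170.96 was held by 9 strong peaks of 206 to 264 bp and by 77 peaks under 200 bp, among 86 in all. Ties were more frequent among the narrow strong peaks than among the wide ones. Of the 156 strong peaks of 200 to 300 bp, 60 (38.5%) shared their score with another strong peak, against 21 (12%) of the 175 strong peaks of 800 bp or more.

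Strong peaks spread over the whole range of widths, while the weaker peaks gathered around 300 to 500 bp. Their median width was 508 bp, with quartiles of 338 and 763 bp, against 397 bp for the weaker peaks, with quartiles of 332 and 473 bp. The share of strong peaks was lowest where the weaker peaks gathered, and higher among both narrower and wider peaks. It was 9.62% (Wilson interval 8.28 to 11.2%) among the 1621 peaks of 200 to 300 bp, 3.78% (3.19 to 4.48%) among the 3360 of 300 to 400 bp and 4.22% (3.52 to 5.06%) among the 2653 of 400 to 500 bp. From there it climbed to 12.9% (10.5 to 15.7%) at 600 to 700 bp, 47.1% (39.3 to 54.9%) at 800 to 900 bp and 82.2% (68.7 to 90.7%) at 1000 to 1100 bp, where the class held 45 peaks. The width classes were chosen after the widths were seen, and width and score come from the same reads.

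**Figure D1:**
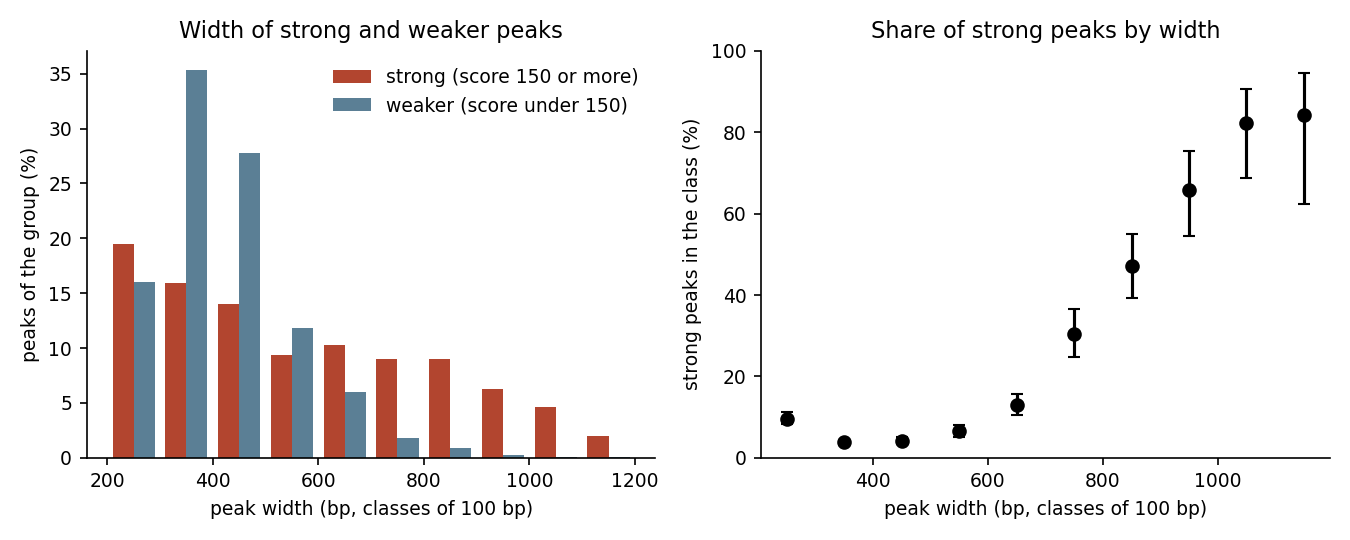
Left, the share of strong (red) and weaker (blue) peaks in each width class of 100 bp. Right, the percentage of peaks in each class that were strong, with 95% Wilson intervals; it falls from 9.62% at 200 to 300 bp to 3.78% at 300 to 400 bp and then climbs to 84.2% at 1100 bp and above.

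Width did not order the strong peaks by score. The 156 members of 200 to 300 bp had a median score of 186, and 16 of them (10.3%) scored 300 or more. The 154 members of 600 to 800 bp had a median of 169, with 5 (3.25%) at 300 or more. The 175 members of 800 bp and wider had a median of 191, and 2 of them (1.14%) reached 300. The widest members had quartiles of 170 and 218 and no score above 379, while the highest scores belonged to members under 800 bp. Raising the score limit to 200 left 265 peaks with a median width of 426 bp, 27 bp above that of the remaining peaks of usual width, where the limit of 150 gave a difference of 111 bp.

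**Figure D2:**
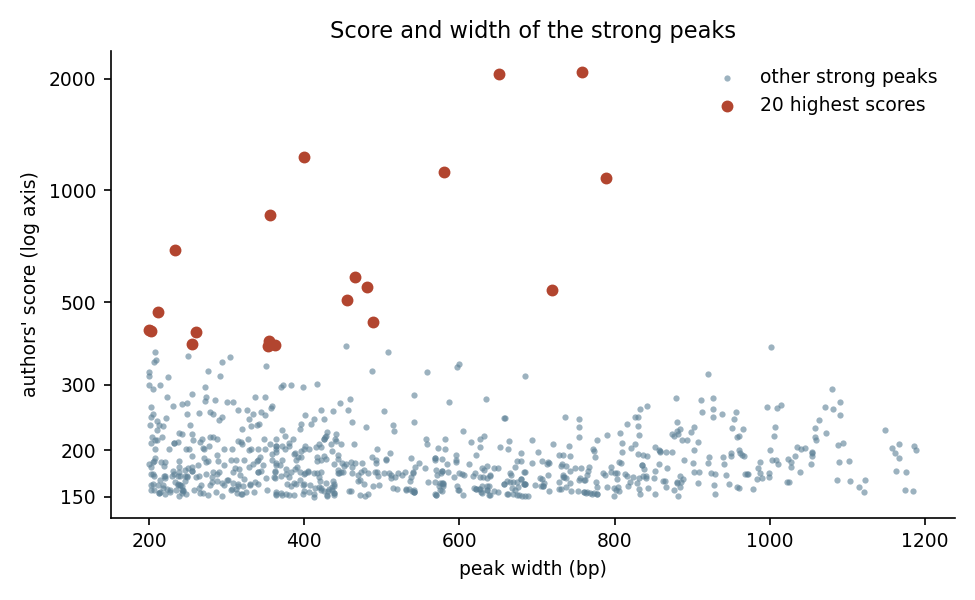
Each point is 1 of the 799 strong peaks, by its width in bp and the authors' score on a log axis; the 20 highest scores are red. None of the 20 is wider than 789 bp, and the points of 800 bp and wider stay at or below 379.

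The 5 widest strong peaks all had modest scores. The widest was chr14:69902114-69903303, 1189 bp, with a score of 200.2 and its nearest peak 34.0 kb away. It was followed by chr2:27532324-27533510, 1186 bp with a score of 205, and chr12:74046012-74047196, 1184 bp with a score of 156. Next came chr17:29627265-29628440, 1175 bp at 174, and chr2:126500442-126501616, 1174 bp at 156. Their score ranks among the 799 ran from 225 to 714, so the widest sites were spread from the upper to the lower part of the order.

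Scores above 1000 were reached at 5 sites on 5 chromosomes. The highest-scoring strong peak, chr9:35112688-35113446, was 758 bp wide with a score of 2084, and chr11:108872868-108873519 was 651 bp wide with a score of 2057. The third, chr3:5860538-5860938, was 400 bp wide with a score of 1231, and it had a single other peak within 500 kb on either side, 120 kb away with a score of 58.9. The fourth was chr5:147072457-147073037, 580 bp wide at 1124, which lay 190 kb from its nearest peak. The fifth was chr17:36368100-36368889, 789 bp wide at 1079, with a peak scoring 134 at 17.2 kb. None of the 5 had another peak within 10 kb, and the highest score among their nearest peaks was 191. These sites thus scored far above their nearest peaks, but they were picked for their high scores. The files hold no copy numbers or repeat positions, so how many places in the genome these reads could come from is not known.

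The sixth to the eleventh score lay between 507 and 859. In that range were chr4:70039046-70039402 (356 bp, score 859), chr17:88155505-88155738 (233 bp, 692) and chr11:53981681-53982147 (466 bp, 585). The next was chr12:3109756-3110237 (481 bp, 549.7), which lies 9.76 kb beyond the start limit of 3.1 Mb near the beginning of the assembled chromosome, and whose nearest peak is only 176 bp wide with a score of 299. The last of this range were chr17:85636258-85636977 (719 bp, 541) and chr7:89800990-89801445 (455 bp, 508). With the fifth site, chromosome 17 so carried 3 of the 11 highest scores.

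The twelfth to the twentieth score lay between 381 and 471, and these sites were mostly narrow. On chromosome 1 there were 3 of them, chr1:16468428-16468640 (212 bp, score 471), chr1:95545863-95546063 (200 bp, 422) and chr1:13257173-13257375 (202 bp, 418). The last 2 of these are within 2 bp of the lower width limit, so a slightly higher limit would have left them out. The others were chr3:75876211-75876700 (489 bp, 444), chr15:41146715-41146975 (260 bp, 416), chr18:56099025-56099380 (355 bp, 395), chr2:90235202-90235457 (255 bp, 386), chr9:24346344-24346706 (362 bp, 384) and chr7:4846959-4847312 (353 bp, 381). The last of them had another peak 1.85 kb away, which was the closest neighbour among the 20.

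As a set, the 20 highest-scoring strong peaks were narrower and lay farther from other peaks than the rest. Their median width was 381 bp, against 514 bp in the other 779, and 4 of 20 were 600 bp or wider, against 325 of 779. The 5 of them scoring 1000 or more went the other way in width, with a median of 651 bp. For all 20, the median distance to the nearest other peak was 53.6 kb, against 35.3 kb. Within 500 kb on either side they had a median of 7 other peaks, against 9. The nearest peak scored 150 or more for 5 of the 20, against 126 of the other 779. It was under 200 bp wide for 7 of the 20, against 184 of the 779. The set was picked by score and holds 20 sites, so these are values of the set and no difference was tested.

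Every chromosome from 1 to 19 had strong peaks, 26 to 69 of them. The pooled density was 0.323 per Mb of mm9 chromosome length (95% Poisson interval 0.301 to 0.346). Chromosome 19 had the highest value, 0.456 per Mb from 28 peaks (0.303 to 0.660), and chromosomes 5 and 11 followed at 0.452 from 69 peaks (0.352 to 0.572) and 0.451 from 55 peaks (0.340 to 0.588). The order of these 3 is within their counting error. Chromosome 8 had the lowest value, 0.228 per Mb from 30 peaks (0.154 to 0.325). The intervals of chromosomes 5 and 11 lay above the pooled density, that of chromosome 19 included it, and no chromosome had an interval wholly below it.

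Chromosomes dense in weaker peaks tended to be dense in strong ones. Across the 19 chromosomes the density of strong peaks and that of weaker peaks had a Pearson r of 0.75 and a Spearman rho of 0.75, given as a description, since both come from 1 library and share chromosome length and mappable sequence. The coefficient of variation between chromosomes was 21.8% for strong and 22.3% for weaker peaks. Counting error has a larger part in the value for strong peaks, which numbered 26 to 69 per chromosome, against 282 to 749 weaker peaks. The similar values therefore do not show that both groups vary alike. Of the peaks of usual width on a chromosome, 5.22% to 9.54% were strong. For 18 of the 19 chromosomes the Wilson interval included the pooled share of 8.03%. Chromosome 5 had the highest share, 9.54% (7.61 to 11.9%). Chromosome 8 had the lowest, with 30 of 575 peaks or 5.22% (3.68 to 7.35%), and its interval lay below the pooled share. It was singled out from 19 as the lowest, and without it the share was 8.20%.

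**Figure D3:**
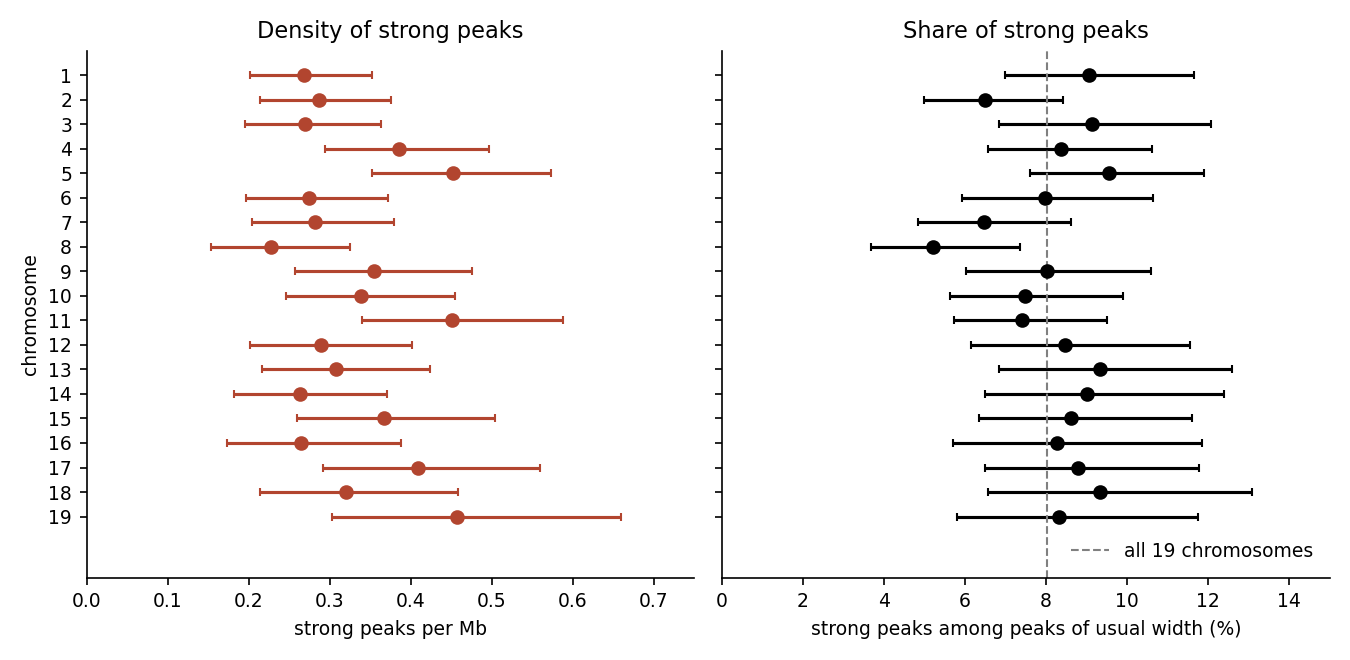
Density of strong peaks per Mb with 95% Poisson intervals (left), and the percentage of peaks of usual width that were strong with 95% Wilson intervals (right), for chromosomes 1 to 19; the dashed line is the pooled share. Densities run from 0.228 on chromosome 8 to 0.456 on chromosome 19, and on the right the interval of chromosome 8 lies left of the line.

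The highest score on a chromosome varied far more than the typical one, as follows where most scores lie near the threshold and a few far above it. Median scores of strong peaks ran from 169 on chromosome 12 to 193 on chromosome 18, whereas the top scores ran from 242 to 2084. The lowest of these tops was on chromosome 19, at chr19:41036555-41036968 with a score of 242. Chromosome 16 reached 271 at chr16:23262653-23262925 and chromosome 6 reached 275 at chr6:113991549-113992183. On chromosome 8 the top was chr8:42267650-42267874 with a score of 314, on chromosome 13 chr13:42073320-42073624 with 357, on chromosome 14 chr14:118822312-118822562 with 358 and on chromosome 10 chr10:61158253-61159255 with 379. The last of these is 1002 bp wide, and it is the highest score of any member of 800 bp or more. On the other 12 chromosomes the top was among the 20 sites named above.

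Strong peaks were mostly far apart, and whether their number alone would give this spacing was not tested. The median step from one strong peak to the next on a chromosome was 1.58 Mb, with quartiles of 0.530 and 3.81 Mb over 780 steps. Of the 799, 14 (1.75%, Wilson interval 1.05 to 2.92%) had another strong peak of usual width within 10 kb, and they formed 7 pairs with no larger group. Within 50 kb the number was 54 (6.76%), and within 100 kb it was 99 (12.4%), in 45 chains of which the largest held 4 peaks. The nearest other peak was a strong peak of usual width for 6.51% of strong and 5.36% of weaker peaks, a difference of 1.14 percentage points (95% Newcombe interval -0.44 to 3.12).

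The closest pair was on chromosome 5, where chr5:37086714-37087133 (score 159) and chr5:37089049-37089454 (score 175) lay 1916 bp apart. The next were chr16:78376183-78376846 (663 bp, score 201) with chr16:78380089-78380324 (235 bp, score 156), 3243 bp apart, and chr5:109983897-109984298 (score 249) with chr5:109987848-109988264 (score 187), 3550 bp apart. On chromosome 6, chr6:52095868-52096238 (score 170) and chr6:52101286-52101685 (score 153) lay 5048 bp apart, and on chromosome 1, chr1:167594709-167595053 (score 176) and chr1:167603239-167603817 (score 163) lay 8186 bp apart. No other peak was called between the members of these 5 pairs. All 10 sites scored under 250, so none of them was among the 20 highest.

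Within 1 Mb the highest count of strong peaks was 5. Chromosome 5 held 2 such windows, chr5:122103163-122500440 with a median score of 188 and chr5:123229073-123974645 with a median score of 166, and in the second all 5 strong peaks were 536 bp or wider. Chromosome 6 held the third, chr6:52095868-52641859, which contains the close pair named above and has a median score of 170. The next 2 windows had 4 strong peaks each, chr1:167542368-167932357 and chr2:27532324-28425665, and were tied with others on further chromosomes and taken in chromosome order, since 10 chromosomes had a window of 4 or more. From the first to the last strong peak, the first 3 windows span 397, 746 and 546 kb. Over these stretches 5 of 12, 5 of 15 and 5 of 12 peaks of usual width were strong. Ending each stretch at a strong peak on both sides raises its share by construction. These windows were chosen for their counts, so their shares are a description. Chromosome 5 also had the longest step without a strong peak, 35.3 Mb from chr5:38307212-38307468 to chr5:73646702-73647505, in which the list has 125 other peaks.

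The distance to the nearest other peak was a little longer at the median for strong than for weaker peaks. It was 35.6 kb for strong peaks (quartiles 14.7 and 76.8 kb) and 31.9 kb for weaker ones (12.2 and 72.7 kb). Another peak lay within 10 kb of 143 of 799 strong peaks, or 17.9%, and of 1945 of 9154 weaker peaks, or 21.2%. Within 5 kb the shares were 7.63% and 10.9%, within 50 kb 61.3% and 64.2%, and within 100 kb 83.5% in both groups. Distance is among the values that chose the peaks of both groups, so these are descriptions of the list and no difference is claimed from them.

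The size of this gap depended on how the groups were set. For the share with another peak within 10 kb, strong minus weaker peaks came to -3.35 percentage points. When each strong peak was compared with weaker peaks of its own width class of 100 bp, the difference was -1.72 points. This alternative was added after the data were seen. With a score limit of 200 the difference was -1.01 points. Other settings widened it, to -4.78 points with widths of 200 to 600 bp and to -4.17 points with a lower distance limit of 500 bp.

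**Figure D4:**
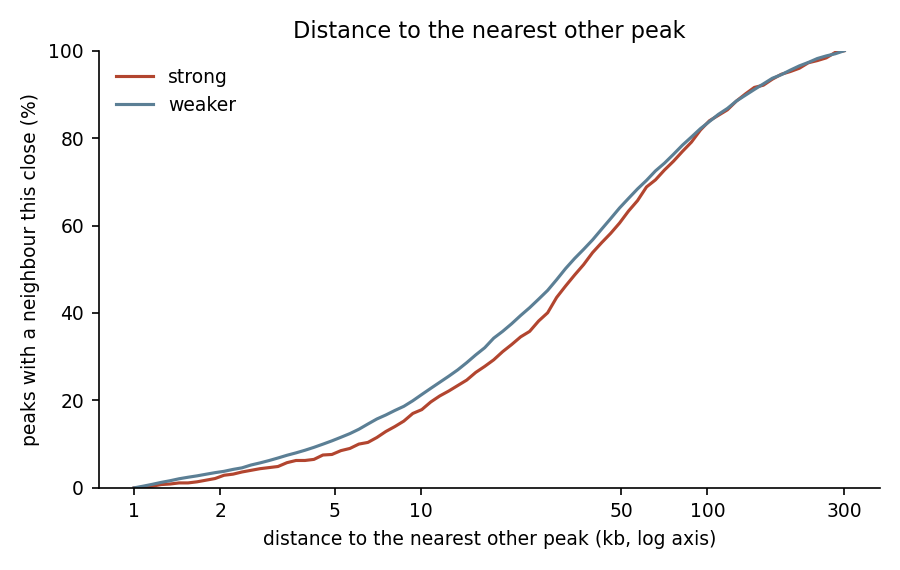
Percentage of strong (red) and weaker (blue) peaks whose nearest other peak lies within the distance on the log axis, edge to edge. The red curve lies below the blue one at 10 kb (17.9% against 21.2%) and at 50 kb (61.3% against 64.2%), and both stand at 83.5% at 100 kb.

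Strong peaks were not clearly more often next to another strong one. The nearest other peak, of any width, scored 150 or more for 131 of 799 strong peaks, or 16.4% (14.0 to 19.1%), and for 1307 of 9154 weaker peaks, or 14.3% (13.6 to 15.0%). The difference was 2.12 percentage points, and its Newcombe interval of -0.40 to 4.93 includes 0. The nearest peak had a median score of 88.0 for strong and 86.2 for weaker peaks. It was under 200 bp wide for 23.9% of strong and 21.6% of weaker peaks, a difference of 2.33 points (-0.62 to 5.52). Where the nearest peak was 200 bp or wider, it scored 150 or more for 9.05% of strong and 7.51% of weaker peaks, a difference of 1.54 points (-0.59 to 4.15). These intervals do not show that the groups are alike. They leave room for a difference of up to about 5 points, and they are likely too narrow, since neighbouring peaks share a gap and are not independent.

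At short range alone the shares were farther apart. Among peaks with a neighbour within 10 kb, that neighbour scored 150 or more for 28 of 143 strong peaks, or 19.6% (13.9 to 26.8%), and for 244 of 1945 weaker peaks, or 12.5% (11.1 to 14.1%). The difference was 7.04 points (1.16 to 14.4). In 13 of the 28 cases the neighbour was itself a strong peak of usual width, and in the other 15 it was under 200 bp wide. Some pairs among the 13 were thus counted from both sides, so the interval is likely too narrow. At distances of 10 to 50 kb the shares were 15.6% and 14.6%, with an interval of the difference from -2.62 to 5.32, and at 50 to 300 kb the difference was 0.89 points (-2.97 to 5.53). The 3 distance bands were chosen after the data were seen, and whether the short band differs from the others was not tested.

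The share of strong peaks was also taken by how crowded the surroundings were. The peaks of usual width were split into 4 parts by the number of other peaks of any width within 500 kb on either side. In the sparsest part, with 1 to 6 others, 240 of 2675 peaks were strong, or 8.97% (7.95 to 10.1%). The share was 7.67% (6.71 to 8.76%) with 7 to 10 others and 8.32% (7.30 to 9.47%) with 11 to 15. In the densest part, with 16 to 62 others, it was 6.95% (5.96 to 8.10%). The 4 shares do not fall in order, the split was chosen after the data were seen, and crowding is tied to the distance that the limits used, so these shares are a description.

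**Figure D5:**
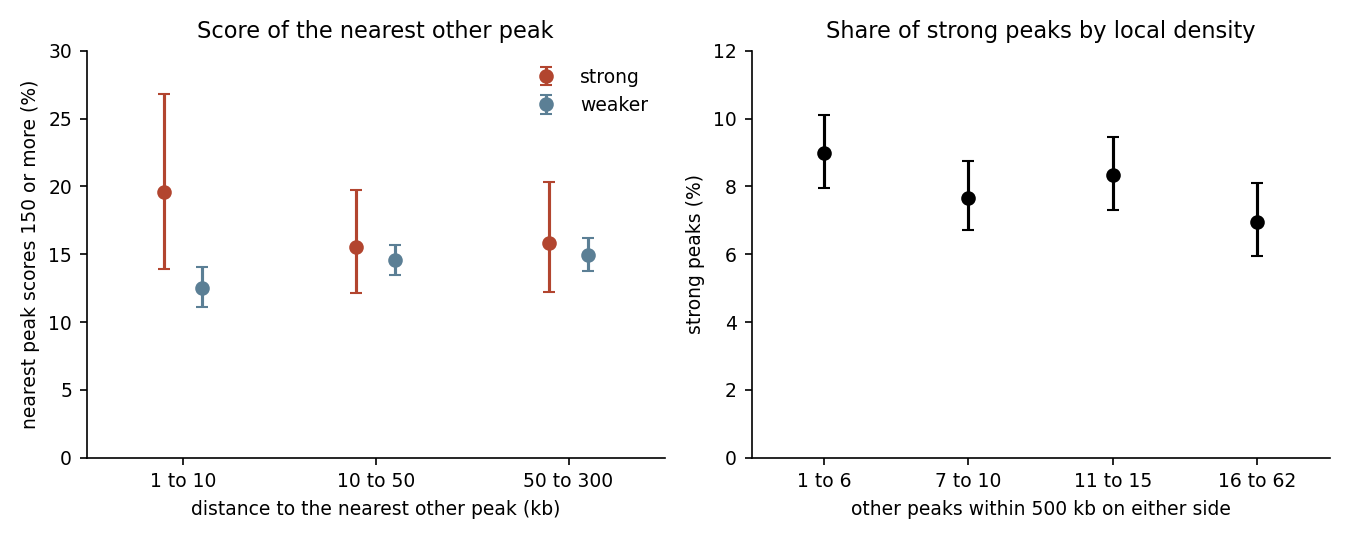
Left, the percentage of strong (red) and weaker (blue) peaks whose nearest other peak scored 150 or more, by its distance; right, the percentage of peaks of usual width that were strong, by the number of other peaks within 500 kb on either side. Bars are 95% Wilson intervals; on the left the groups are farthest apart at 1 to 10 kb (19.6% and 12.5%), and on the right the shares run from 8.97% in the sparsest to 6.95% in the densest part.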

How the data were processed

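ChIP-seq of Ehf and an input control were made from mouse corneal epithelium, 1 library each, and samples were grouped by title. The deposited Ehf peak list gives a position, a name and a score per peak, with no header. The deposited score is a value of the authors on a scale they do not state. How peaks were called, with which version and settings and with what use of the input, is likewise not given in the sources used here. Peak names begin with MACS_peak. Per the submitters' processing notes, the build was mm9 and the tools included bedtools 2.11.2 and Bowtie 0.12.7. No counts are given, so depth is unknown and no limit of detection is stated.

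Positions are printed as in the file, which does not say whether starts count from 0 or 1. Chromosome lengths of mm9 came from the R package GenomeInfoDb. The reference tables at hand are of another build, so the planned descriptions by gene, start site, gene list and ETS motif were not run. Distances are edge to edge, and the left peak was taken on ties. Shares carry 95% Wilson intervals, differences in the score or width of the nearest peak Newcombe intervals and densities exact Poisson intervals, all for counting error only. No p-values were computed.

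Members and lists were chosen with earlier results of these data known. Sites named are the 20 highest scores, the 5 widest, the 5 closest pairs, the 5 densest windows of 1 Mb, the top of each chromosome, the extreme chromosomes, and 5 peaks on each side of the score limit. The longest step between strong peaks was added after its value was seen. Alternatives changed the score, width and distance limits, the chromosomes, the kind of neighbour and the distance measure. The code was tested on simulated data. Python 3.11.15 with numpy 2.4.6, pandas 2.3.3, scipy 1.17.1 and matplotlib 3.10.9 was used.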

Additional observations from a re-analysis of the deposited data

How the results depend on the processing

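The number of strong peaks follows from its limits. It was 2734 with a score of 100 or more, 265 with 200 or more and 472 with widths of 200 to 600 bp, and the pooled density was then 1.11, 0.107 and 0.191 per Mb. With widths of 300 to 1200 bp the density was 0.260 per Mb, and in the other 5 settings 0.306 to 0.336. The excess in median width fell to 27 bp at a score of 200 and was 73 bp at 100. Strong peaks with another strong peak nearby numbered 54 within 50 kb and 99 within 100 kb, by construction more than the 14 within 10 kb. The difference in the share with a near neighbour was negative in all 14 alternatives, from -4.78 to -1.01 points, as a description of values the limits used. The difference in the share with a strong nearest peak was positive in all 11 alternatives, from 0.25 to 3.14 points, and the interval included 0 in the 9 that had one. The causes were not tested. The settings for start sites, gene lists and motifs were not run. No paired analysis was possible because there was a single library of each kind. Depth is unknown, so sites below the authors' threshold cannot be judged.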

Other observations

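Chromosome X was outside the limits. Under the same limits it had 132 peaks of usual width, of which 8 were strong, or 6.06% (95% Wilson interval 3.10 to 11.5%), an interval that includes the autosomal share of 8.03%. Their density was 0.048 per Mb, against 0.323 on chromosomes 1 to 19. Their median score was 220.2 and their median width 388 bp. The highest was chrX:71599005-71599218, 213 bp wide with a score of 353, and the next was chrX:166431834-166432427, 593 bp wide with a score of 296 and another peak 2338 bp away. The sex of the pooled mice is not stated.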
